A study of Homo sapiens with 12 samples.

Results

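The small nucleolar RNA (snoRNA) host genes described here were the genes whose symbol is SNHG followed by a number, together with GAS5, ZFAS1 and EPB41L4A-AS1. They numbered 31 of the 62703 gene identifiers in the count table and were chosen by symbol alone, so no measured value entered the choice. Of these, 25 had enough counts to be tested. SNHG18, SNHG27 and SNHG28 had 0 counts in all libraries, and SNHG14, SNHG21 and SNHG22 had 10, 69 and 8 counts over the 12 libraries together. Poly(A)-selected RNA was sequenced from HCT116 cells, a human colorectal cancer epithelial cell line, 48 h after transfection with hnRNP U siRNA or with control siRNA (labelled wild-type). Each siRNA was followed in heavy polysomal (HP) RNA, the RNA sedimenting with many ribosomes, and in total RNA (titled input), with 3 libraries in each of the 4 groups, which the series describes as biological replicates. The titles share a code among the 4 libraries of a replicate number, and the labels do not say what it stands for. Silencing was transient and in 1 cell line, and the sources used here do not say which of the study's hnRNP U siRNA sequences was transfected for these libraries.

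snoRNAs are short nuclear RNAs that guide the chemical modification of ribosomal RNA, box C/D snoRNAs its methylation and box H/ACA snoRNAs its pseudouridylation. Most human snoRNAs are not transcribed from a promoter of their own but are cut out of the introns of a host gene after splicing. In a noncoding host gene the spliced exons are left over as a polyadenylated RNA that can leave the nucleus, meet ribosomes at short reading frames and be degraded by nonsense-mediated decay, a route best known for GAS5. Several of these genes start with a C and a run of pyrimidines, the 5′ terminal oligopyrimidine start also found on ribosomal protein mRNAs, which ties their translation to growth signals. hnRNP U, the silenced protein, is an abundant RNA-binding protein, and the study asked how its loss alters the loading of RNAs onto heavy polysomes.

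Library totals ran from 30305012 to 39761103 counts. HNRNPU had 82.4, 75.2 and 77.1 CPM (counts scaled to a common library size with TMM factors over the 12 libraries) in HP RNA with hnRNP U siRNA, against 1020, 1140 and 1070 CPM with control siRNA, and 168, 149 and 160 CPM in total RNA with hnRNP U siRNA, against 992, 1110 and 986 CPM with control siRNA. Its log2 fold change was −3.82 (SE 0.06) in HP RNA and −2.69 (SE 0.06) in total RNA. Of the epithelial markers, EPCAM, KRT8, KRT18 and CDH1 were present and VIL1 had 0 or 1 counts per library of total RNA. Of the markers of other cell types, PTPRC and PECAM1 had 0 to 3 counts per library of total RNA, while VIM and COL1A1 averaged 7.41 and 9.98 CPM in total RNA with hnRNP U siRNA and 8.37 and 16.7 CPM with control siRNA. Genes of the mitochondrial genome took 1.19% to 1.29% of HP counts with hnRNP U siRNA and 0.868% to 1.24% with control siRNA. Their share of total RNA was 8.84% to 9.7% with hnRNP U siRNA and 10.8% to 11.4% with control siRNA.

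The first 24 nt of some of these genes are printed to show how far their starts resemble those of ribosomal protein mRNAs, with the unbroken pyrimidine run that follows an initial C in capitals. RefSeq gives 1 start on GRCh38.p14 for 27 of the 31 genes, and 7 of these (25.9%) begin with C and at least 4 further pyrimidines, namely SNHG4, SNHG5, SNHG12, SNHG18, SNHG19, SNHG32 and ZFAS1. The same rule holds for 4.07% of the 35116 RefSeq starts searched, on the transcribed strand, and for 56.5% of 85 cytosolic ribosomal protein genes. The 6 of these that were tested below, each written 5′ to 3′, are as follows.
SNHG4, chr5:139274101-139274124, plus strand: CCCTTTCCCCTCCggcctctgccg
SNHG12, chr1:28581850-28581873, minus strand: CCTTTCTCCCCgccgcattcccgg
SNHG19, chr16:2155335-2155358, minus strand: CTTTTCggggtcgagtccgagggg
SNHG32, chr6:31834916-31834939, plus strand: CTTTTTgcgaagtgggctcgtggg
SNHG5, chr6:85678710-85678733, minus strand: CTTTTacgtcggccttcgcgagcg
ZFAS1, chr20:49278642-49278665, plus strand: CTTTCgcgtctgcggtgcccggag

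A gene can have many annotated starts, and the RefSeq start is only 1 of them. By GENCODE, 142 of the 890 transcripts of the 31 genes (16.0%) begin with such a run, against 2.61% of all 252835 transcripts, and 18 of the 31 genes have at least 1. GAS5 and SNHG29 carry it on their canonical GENCODE transcript but not at their RefSeq start, with 50 of 91 GAS5 transcripts and 30 of 62 SNHG29 transcripts beginning this way. Their canonical starts are shown because both genes are among the more abundant hosts in these cells.
GAS5, chr1:173867966-173867989, minus strand: CTTTTCgaggtaggagtcgactcc
SNHG29, chr17:16439037-16439060, plus strand: CTTTTCattcccgttgttatggag
The RefSeq starts of SNHG3, SNHG16 and SNHG26, all higher with hnRNP U siRNA (below), do not begin with such a run. In GENCODE, 1 of 3, 3 of 18 and 12 of 22 of their transcripts do. The rule counts no pyrimidine run further in, such as those seen below in SNHG16 and SNHG26.
SNHG3, chr1:28505943-28505966, plus strand: gattctctaactgcgcatgcttct
SNHG16, chr17:76557764-76557787, plus strand: gcgttcttttcgaggtcggccgcg
SNHG26, chr7:22854240-22854263, plus strand: ctccgcagtgccctcccttttcgg
A match of letters is a description of the annotated start and not evidence of how the RNA is used.

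Per kb of the canonical transcript, SNHG29 (chromosome 17, 16438767 to 16480249, host of SNORD49A, SNORD49B and SNORD65) had the highest level of the 31 genes in total RNA. It averaged 1150 ± 32.9 CPM per kb with hnRNP U siRNA and 1330 ± 65.1 with control siRNA (SD, n = 3 each). SNHG16 followed with 608 ± 17.7 CPM per kb with hnRNP U siRNA and 487 ± 26.8 with control siRNA. GAS5 had 148 ± 0.696 CPM per kb and SNHG1 128 ± 8.33 with hnRNP U siRNA, against 156 ± 20 and 107 ± 6.24 with control siRNA. The order of these 4 was the same under both siRNAs, although the spread of GAS5 with control siRNA was the widest of them relative to its mean. The weakest gene tested was SNHG31, at 0.702 ± 0.183 CPM per kb with hnRNP U siRNA and 0.348 ± 0.0279 with control siRNA. These lengths are those of 1 isoform among up to 142 per gene, so levels per kb depend on that choice. Together the 31 genes held 0.0449% ± 0.000844 of HP counts with hnRNP U siRNA and 0.0406% ± 0.00172 with control siRNA. They held 0.169% ± 0.0024 of total RNA counts with hnRNP U siRNA and 0.168% ± 0.0103 with control siRNA (SD, n = 3 each).

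The comparison of HP with total RNA asked how much of each host RNA was found with heavy polysomes. All 25 genes tested were lower in HP than in total RNA, under both siRNAs. With hnRNP U siRNA the log2 ratio of HP to total RNA ran from −2.35 (SNHG4, SNHG6) to −0.50 (SNHG7), with a median of −1.80 beside −0.013 for all genes tested. With control siRNA it ran from −2.50 (SNHG6, SNHG19) to −0.65 (SNHG7), with a median of −2.08 beside −0.014. Of all genes tested, 70.1% were called with hnRNP U siRNA (35.1% higher and 35% lower in HP RNA) and 67.7% with control siRNA (33.8% higher and 33.9% lower), by edgeR at an adjusted p under 0.05. TMM sets the typical gene near 0, so these ratios place the host RNAs relative to other genes and are not the share of their molecules bound to polysomes. The study also isolated light polysomal and non-polysomal RNA, which are not among these libraries. A low ratio therefore does not show whether a host RNA was with few ribosomes or with none. In bulk RNA a lower level can reflect fewer cells holding an RNA or less of it per cell, and these cannot be told apart.

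SNHG6, host of SNORD87, was the most depleted with control siRNA among genes whose log2 CPM averaged 3 or more, and was level with SNHG4 with hnRNP U siRNA. It had 21.7, 23.6 and 20.0 CPM in HP RNA and 104, 110 and 110 CPM in total RNA with hnRNP U siRNA, and 20.7, 22.8 and 21.4 CPM in HP RNA against 130, 116 and 117 CPM in total RNA with control siRNA. The 2 kinds of RNA were far apart in every replicate, at 18.1% to 21.5% (HP CPM as a percentage of total CPM) with hnRNP U siRNA and 16.0% to 19.6% with control siRNA. SNHG29 had 114, 123 and 119 CPM in HP RNA against 494, 513 and 522 CPM in total RNA with hnRNP U siRNA. With control siRNA it had 124, 127 and 130 CPM in HP RNA against 620, 564 and 581 CPM in total RNA. Its log2 ratios of −2.13 (SE 0.04) with hnRNP U siRNA and −2.23 (SE 0.05) with control siRNA were the most precisely measured of the group. SNHG4, host of SNORA74A, had log2 ratios of −2.35 (SE 0.09) with hnRNP U siRNA and −2.18 (SE 0.10) with control siRNA.

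At the other end, SNHG7, host of SNORA17A and SNORA17B, was the least depleted. It had 44, 36.5 and 42.8 CPM in HP RNA against 57.7, 57.6 and 54.9 CPM in total RNA with hnRNP U siRNA, and 45.9, 38.5 and 48.6 CPM in HP RNA against 68.0, 65.6 and 72.3 CPM in total RNA with control siRNA. HP and total RNA did not overlap under either siRNA. SNHG11 followed with log2 ratios of −0.53 (95% interval −0.74 to −0.32) with hnRNP U siRNA and −0.81 (−1.10 to −0.52) with control siRNA, intervals that overlap those of SNHG7 (−0.63 to −0.36 and −0.81 to −0.49). SNHG17, host of SNORA71 snoRNAs, had 16.4, 18.4 and 15.4 CPM in HP RNA against 25.5, 25.5 and 26.4 CPM in total RNA with hnRNP U siRNA. With control siRNA it had 11.3, 12.4 and 11.4 CPM in HP RNA against 24.3, 23.8 and 26.5 CPM in total RNA. SNHG9, SNHG30 and SNHG8 were also in this less depleted group, at −1.21, −0.90 and −1.31 with hnRNP U siRNA and −1.10, −1.26 and −1.61 with control siRNA. SNHG7, SNHG11, SNHG17, SNHG9 and SNHG8 host box H/ACA snoRNAs and SNHG30 a box C/D snoRNA.

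**Figure D1:**
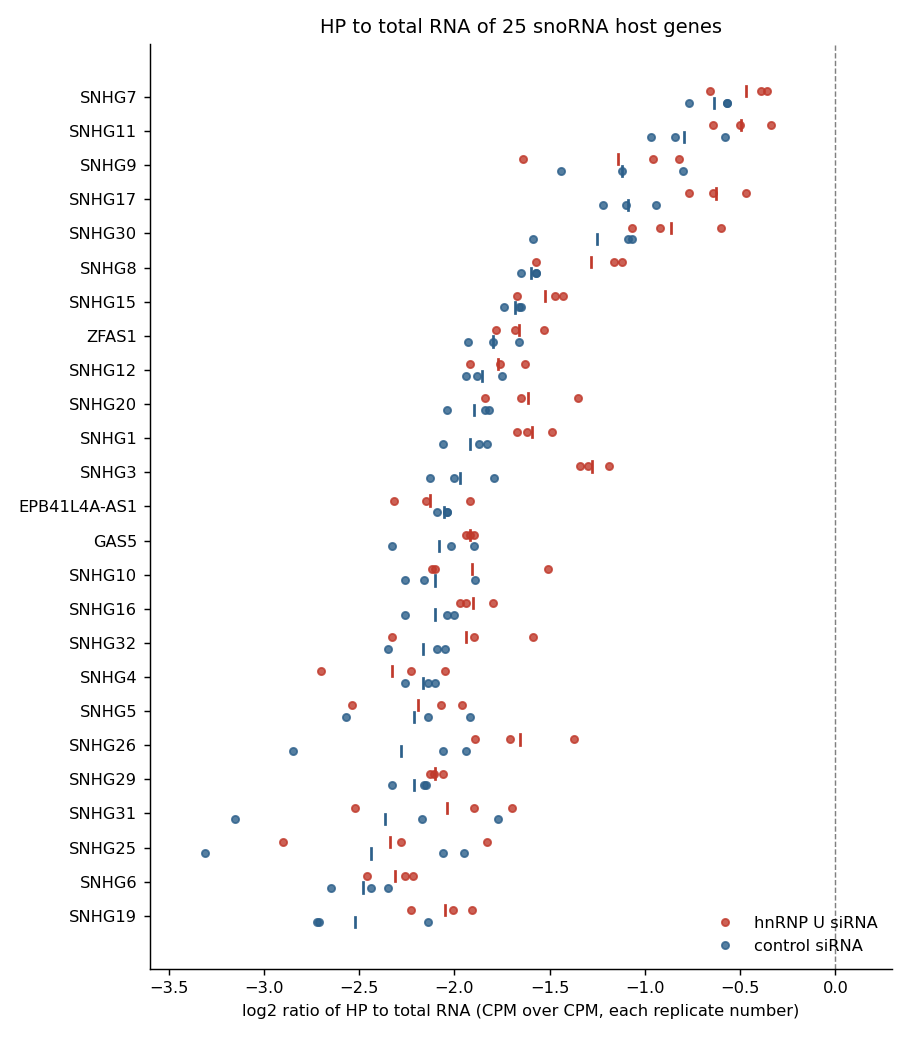
Log2 ratio of HP to total RNA (x axis, CPM over CPM for each replicate number) of the 25 genes tested (rows, in the order of the ratio fitted with control siRNA, HP-richest at the top), hnRNP U siRNA in red above control siRNA in blue. Points are the 3 replicates and ticks their means. Every point lies below 0, from −3.31 (SNHG25, control siRNA) to −0.34 (SNHG11, hnRNP U siRNA), and for SNHG3 the red points stand apart to the right of the blue ones.

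GAS5 and the other well-known hosts lay on both sides of the group medians, −1.80 with hnRNP U siRNA and −2.08 with control siRNA. GAS5, the host of SNORD44, SNORD47 and SNORD74 to SNORD81 on chromosome 1, had 30.1, 30.4 and 29.7 CPM in HP RNA against 114, 113 and 114 CPM in total RNA with hnRNP U siRNA. With control siRNA it had 27.2, 26.5 and 30.7 CPM in HP RNA against 137, 108 and 114 CPM in total RNA. Its log2 ratios of HP to total RNA were −1.95 (SE 0.05) with hnRNP U siRNA and −2.10 (SE 0.08) with control siRNA. ZFAS1, which hosts SNORD12, SNORD12B and SNORD12C, had 12.2, 12.3 and 13.4 CPM in HP RNA against 42.0, 39.3 and 38.8 CPM in total RNA with hnRNP U siRNA. With control siRNA it had 12.6, 11.7 and 13.5 CPM in HP RNA against 47.8, 40.8 and 42.6 CPM in total RNA. The siRNA groups overlapped in both kinds of RNA, and its log2 ratios were −1.70 (SE 0.07) with hnRNP U siRNA and −1.81 (SE 0.08) with control siRNA. EPB41L4A-AS1, the host of SNORA13, had 4.37, 5.36 and 5.07 CPM in HP RNA against 21.9, 20.3 and 22.5 CPM in total RNA with hnRNP U siRNA. With control siRNA it had 5.87, 5.10 and 5.94 CPM in HP RNA against 25.1, 21.0 and 24.4 CPM in total RNA. Again the siRNA groups overlapped in both kinds of RNA. On the log2 scale it had −2.16 (SE 0.09) and SNHG1 −1.63 (SE 0.06) with hnRNP U siRNA, against −2.08 (SE 0.09) and −1.93 (SE 0.06) with control siRNA.

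The same comparison over other kinds of genes is given by counts, with no test between lists. Of the 14 other lncRNA genes with a snoRNA in an intron, 12 were lower in HP RNA under each siRNA, with medians of −1.22 with hnRNP U siRNA and −1.42 with control siRNA. DANCR was among them, at −1.45 (SE 0.05) with hnRNP U siRNA and −1.60 (SE 0.06) with control siRNA. Of the microRNA host genes, which release another kind of small RNA, 18 of 23 (78.3%) were lower with hnRNP U siRNA and 17 of 22 (77.3%) with control siRNA. All lncRNA genes tested had 63.8% lower with hnRNP U siRNA and 65.0% with control siRNA, with medians of −0.81 and −0.92. Protein-coding snoRNA hosts, whose exons are an ordinary mRNA, had medians of 0.01 with hnRNP U siRNA and −0.01 with control siRNA, with 35.6% and 33.3% of 219 lower. Of 4 noncoding RNAs listed as a check of the fractions, not all of which are nuclear, 3 were lower in HP RNA under each siRNA. MALAT1, NEAT1 and OIP5-AS1 had log2 ratios of −1.77, −2.23 and −1.99 with hnRNP U siRNA and −2.60, −2.36 and −1.90 with control siRNA. KCNQ1OT1 was not called, at −0.28 (adjusted p = 0.13) with hnRNP U siRNA and −0.25 (adjusted p = 0.45) with control siRNA. The part of nuclear RNA in the ratios of the host genes was not tested.

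**Figure D2:**
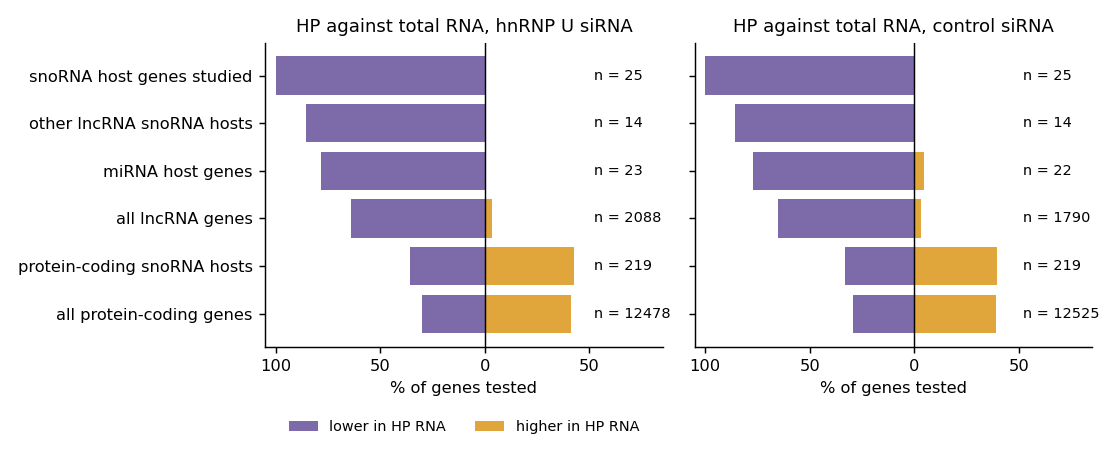
Percentage of the genes tested in each list that were called lower (purple, to the left) or higher (orange, to the right) in HP than in total RNA, with hnRNP U siRNA on the left and control siRNA on the right and the number tested beside each bar. All 25 host genes studied were lower under both siRNAs, against 30.2% and 29.6% of all protein-coding genes.

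Between the siRNAs, total RNA asked whether silencing changed the amount of each host RNA. Of the 25 genes, 10 were higher with hnRNP U siRNA (SNHG1, SNHG3, SNHG10, SNHG11, SNHG15, SNHG16, SNHG20, SNHG26, SNHG30 and SNHG31), 6 were lower (SNHG4, SNHG6, SNHG7, SNHG8, SNHG12 and SNHG29) and 9 were not called. Of all genes tested, 28.8% were called higher and 29.3% lower (58.1% in all), so 16 called of 25 is near the share of genes at large. The median log2 fold change of the 25 was 0.05, beside 0.005 for all genes tested. Called changes ran from −0.45 (SNHG12) to 1.01 (SNHG31).

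SNHG26, host of SNORD93, had 12.8, 11.5 and 13.5 CPM in total RNA with hnRNP U siRNA against 6.97, 7.11 and 8.10 CPM with control siRNA, which is 0.76 higher on the log2 scale (SE 0.09, adjusted p = 1.7e-06). SNHG10, the host of SCARNA13, had 12.9, 11.6 and 12.3 CPM with hnRNP U siRNA against 7.21, 8.11 and 8.77 CPM with control siRNA (log2 fold change 0.61, SE 0.09). Small Cajal body RNAs such as SCARNA13 guide the modification of spliceosomal RNAs, and SNHG20, host of SCARNA16, was also higher (0.28, SE 0.09). SNHG16, which hosts SNORD1A, SNORD1B and SNORD1C, had 313, 295 and 301 CPM with hnRNP U siRNA against 257, 230 and 241 CPM with control siRNA (0.32, SE 0.05). SNHG1, on chromosome 11, the gene that carries SNORD22 and SNORD25 to SNORD31, had 159, 142 and 144 CPM with hnRNP U siRNA against 131, 117 and 126 CPM with control siRNA (0.25, SE 0.05). SNHG3, host of SNORA73A and SNORA73B (the U17 snoRNAs, needed for cleavage of the ribosomal RNA precursor), had 89.8, 89.3 and 92.8 CPM with hnRNP U siRNA against 77.4, 75.1 and 84.9 CPM with control siRNA (0.19, SE 0.05, adjusted p = 0.0023). In all 6 of these genes the 3 values with hnRNP U siRNA lay above the 3 with control siRNA, as groups did not overlap for 62.6% of all genes tested.

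The log2 changes of the genes that fell ran from −0.45 to −0.16. SNHG12, which carries SNORD99 and several box H/ACA snoRNAs, had 23.5, 21.9 and 24.5 CPM with hnRNP U siRNA against 30.3, 30.1 and 34.5 CPM with control siRNA, for a log2 change of −0.45 (adjusted p = 1.4e-05, SE 0.06). SNHG4 had 32.0, 31.4 and 35.0 CPM with hnRNP U siRNA against 41.5, 41.9 and 49.8 CPM with control siRNA (−0.44, SE 0.07). SNHG7, SNHG8, SNHG29 and SNHG6 had −0.28, −0.26, −0.21 and −0.16, with SEs of 0.04 to 0.06. SNHG8, host of SNORA24, had 24.3, 24.7 and 27.6 CPM with hnRNP U siRNA against 31.3, 27.9 and 32.5 CPM with control siRNA, the nearest pair of values being 27.6 and 27.9. GAS5 was not called (−0.07, 95% interval −0.21 to 0.06), nor were ZFAS1 (−0.13, −0.25 to −0.01, adjusted p = 0.064) and EPB41L4A-AS1 (−0.13, −0.27 to 0.02). Without replicate 2 of the control siRNA total RNA, in which these 3 genes had their lowest control values, they were called lower at −0.15, −0.18 and −0.21 (adjusted p = 0.037, 0.013 and 0.012).

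In HP RNA, which reads the host RNAs found with heavy polysomes, 11 of the 25 genes were higher with hnRNP U siRNA and 3 were lower, against 26.5% and 28% of all genes tested (54.5% in all). The 11 were the 10 that were higher in total RNA and SNHG17. The 3 lower were SNHG4, SNHG12 and SNHG29, all lower in total RNA as well. No gene was called in opposite directions, SNHG6, SNHG7 and SNHG8 were called in total RNA alone, and 8 genes were called in neither. The median over the 25 was 0.16, beside −0.000275 for all genes tested. All lncRNA genes tested had 40.1% higher and 10.6% lower in HP RNA, with a median of 0.38. The other lncRNA hosts had 45.5% higher and 9.09% lower. An excess of higher over lower genes was therefore not particular to the genes studied.

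SNHG3 had 35.5, 39.1 and 37.7 CPM in HP RNA with hnRNP U siRNA against 17.7, 21.7 and 21.3 CPM with control siRNA, for a log2 change of 0.85 (adjusted p = 2.3e-07, SE 0.08). SNHG1 had 51.8, 50.5 and 45.1 CPM with hnRNP U siRNA against 31.5, 32.1 and 35.5 CPM with control siRNA (0.53, SE 0.07). SNHG16 had 81.6, 84.6 and 76.6 CPM with hnRNP U siRNA against 53.7, 57.6 and 58.5 CPM with control siRNA (0.48, SE 0.06). For SNHG17, whose HP values are given above, the change was 0.48 (SE 0.09), while in total RNA it was 0.05 (SE 0.06) with overlapping groups. The groups did not overlap in HP RNA for any of these 4 genes, as for 60.4% of all genes tested.

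The remaining higher genes had fewer counts and wider intervals. SNHG26 had 3.47, 4.44 and 4.12 CPM in HP RNA with hnRNP U siRNA against 0.967, 1.70 and 2.12 CPM with control siRNA, a log2 fold change of 1.26 (95% interval 0.83 to 1.69). SNHG30, host of SNORD7, had 1.08 (0.80 to 1.37) and SNHG11 0.68 (0.40 to 0.95). SNHG31, at 0.346 to 0.389 CPM with hnRNP U siRNA and 0.0911 to 0.234 CPM with control siRNA, had 1.17 (0.30 to 2.04, adjusted p = 0.024), and its call was lost in 5 alternatives, DESeq2 (adjusted p = 0.11) among them. SNHG10, SNHG20 and SNHG15 had 0.76, 0.54 and 0.31 (SEs 0.18, 0.17 and 0.10).

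SNHG4 had 6.80, 7.61 and 5.39 CPM in HP RNA with hnRNP U siRNA against 8.64, 9.78 and 11.3 CPM with control siRNA, for a log2 change of −0.63 (adjusted p = 5.7e-04, SE 0.13). SNHG12 had 6.92, 7.09 and 6.49 CPM with hnRNP U siRNA against 8.24, 7.84 and 10.2 CPM with control siRNA (−0.40, SE 0.11, adjusted p = 0.0067). SNHG29, with the HP values given above, changed by −0.13 (SE 0.05, adjusted p = 0.047). That call is at the threshold, and without replicate 3 of the control siRNA HP RNA only SNHG4 was still called lower, with SNHG12 at −0.28 (adjusted p = 0.057) and SNHG29 at −0.11 (adjusted p = 0.12).

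**Figure D3:**
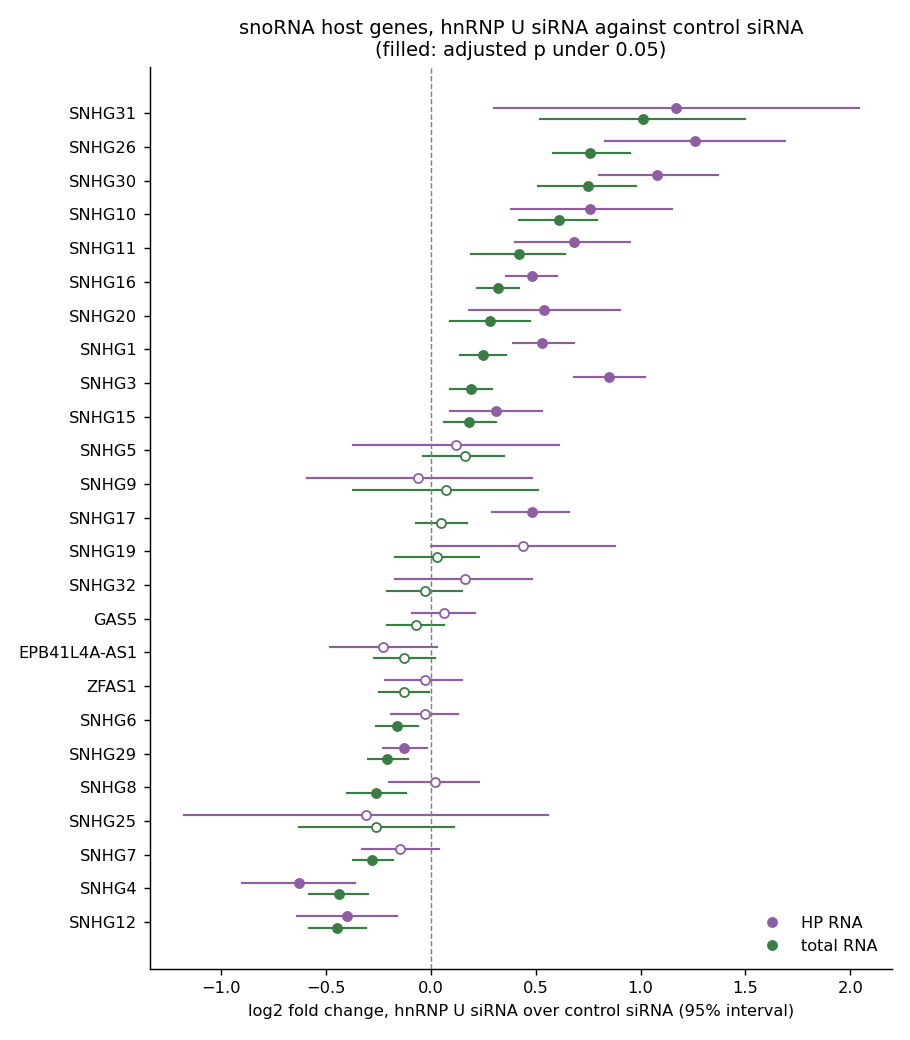
Log2 fold change of hnRNP U siRNA over control siRNA (x axis) with its 95% interval for the 25 genes (rows, ordered by total RNA), HP RNA in purple above total RNA in green, filled where called at an adjusted p under 0.05. Both kinds of RNA lie on the same side of 0 for every gene called in both, and SNHG3 and SNHG17 have the clearest gap between them, at 0.85 and 0.48 in HP RNA against 0.19 and 0.05 in total RNA.

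HP/total means HP over total RNA set between the siRNAs by an interaction term in a fit of the 12 libraries. It asked whether silencing altered the heavy polysome association of the hosts beyond their change in total RNA. It rests on the same libraries as the comparisons above. SNHG3 was the 1 gene of the 25 called higher and none was called lower, where 0.163% of all genes tested (26 of 15920) were called in either direction and 0.0817% in each. HP RNA of SNHG3 was 39.5%, 43.8% and 40.6% of its total RNA (CPM over CPM, replicates 1 to 3) with hnRNP U siRNA, against 22.8%, 28.9% and 25.1% with control siRNA. The 3 ratios with hnRNP U siRNA all lay above the 3 with control siRNA. The log2 change was 0.69 (SE 0.09, 95% interval 0.50 to 0.89, adjusted p = 9.9e-04), a 1.61-fold higher ratio, and its rank by p was 5 among the 15920 genes. It was called under every alternative tried for it, including the removal of any 1 library.

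SNHG17 came next by p at 0.46 (SE 0.10, adjusted p = 0.073), with ratios of 64.3%, 72.0% and 58.5% with hnRNP U siRNA against 46.7%, 52% and 43.1% with control siRNA. It passed the threshold with DESeq2 (adjusted p = 0.043) and without replicate 2 of the control HP RNA (0.046) or replicate 3 of the hnRNP U siRNA HP RNA (0.045), and with either replicate block (0.028 by replicate number, 0.022 by culture). SNHG1 had 0.32 (SE 0.09, adjusted p = 0.32), with 32.5%, 35.6% and 31.4% with hnRNP U siRNA against 24%, 27.4% and 28.1% with control siRNA. It was called with the culture as a block (adjusted p = 0.021). SNHG16 and SNHG26 had 0.19 (SE 0.07) and 0.53 (SE 0.22), also with 3 ratios above 3, and SNHG29 had 0.12 (SE 0.07). These 6 of 25 genes with ratios that did not overlap, all with the higher ratios under hnRNP U siRNA, compare with 13.2% of all genes in that direction and 5.89% in the other, where the 25 had 0.

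Over the group, 20 of the 25 differences were above 0 and 5 below, with a median of 0.19 beside 0.036 for all genes tested, and 7 genes had an unadjusted p under 0.05 where 1120 of all 15920 did. All lncRNA genes had a median of 0.14 and the other lncRNA hosts 0.14, so the upward displacement was not confined to the genes studied. The lowest values were −0.16 (SE 0.15) for SNHG4, −0.10 (SE 0.35) for SNHG9 and −0.07 (SE 0.14) for EPB41L4A-AS1. GAS5 had 0.17 (95% interval −0.05 to 0.38), ZFAS1 0.13 (−0.09 to 0.34) and SNHG6 0.17 (−0.02 to 0.35). In data simulated with the same library sizes, 32% of genes with a log2 change of 0.5 were called in this comparison and 95% of those with a change of 1. The simulation gave each gene the same mean in HP and total RNA and all genes a common dispersion. These rates therefore do not apply directly to the hosts, which were lower in HP RNA.

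The 26 genes called also held 6 genes of the mitochondrial genome, all higher. The 13 mRNAs of that genome had a median of 0.39, with 5 called. MALAT1 had 0.84 (SE 0.21, adjusted p = 0.19), NEAT1 0.14, KCNQ1OT1 −0.02 and OIP5-AS1 −0.07. Their median was 0.06, with 0 called. The part of RNA from mitochondria or from the nucleus in the HP/total of the host genes was not tested. Of 224 protein-coding snoRNA hosts, 3 were called higher and 0 lower, with a median of 0.05. They were ODC1 (0.56, SE 0.08), which begins polyamine synthesis, EIF4A2 (0.44, SE 0.08), a translation initiation helicase, and RPS20 (0.33, SE 0.07), a ribosomal protein.

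**Figure D4:**
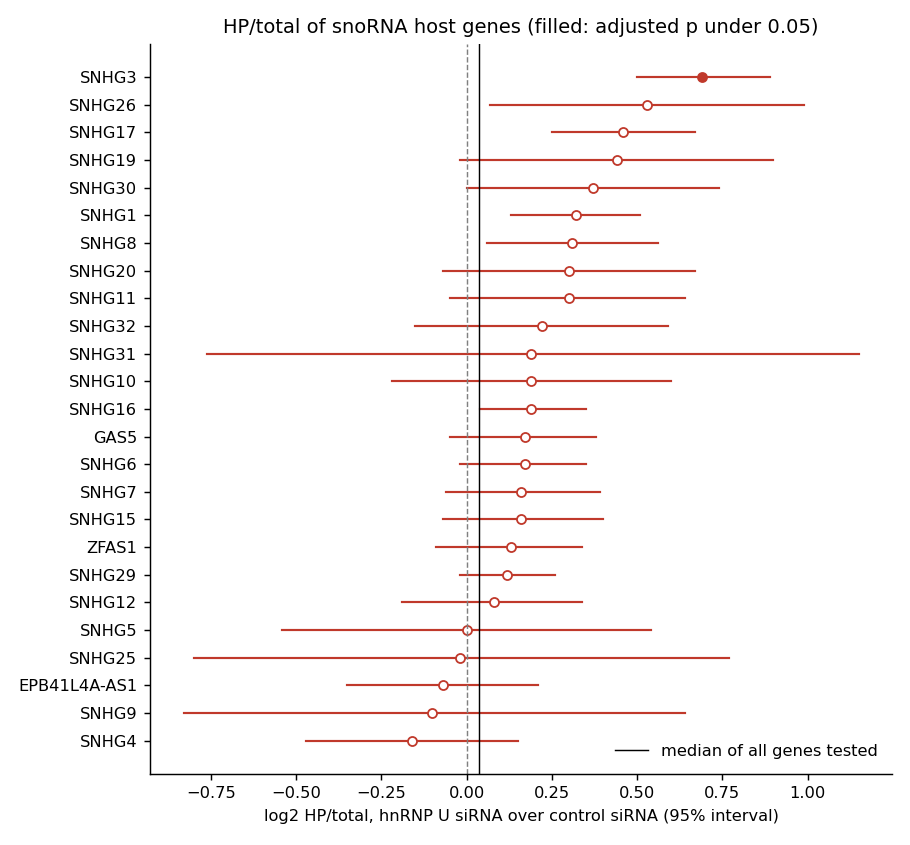
Log2 HP/total of hnRNP U siRNA over control siRNA (x axis) with its 95% interval for the 25 genes (rows), filled where called, with the median of all genes tested (0.036) as a solid line. SNHG3 at 0.69 is the filled point, and 20 of the 25 points lie above 0.

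**Figure D5:**
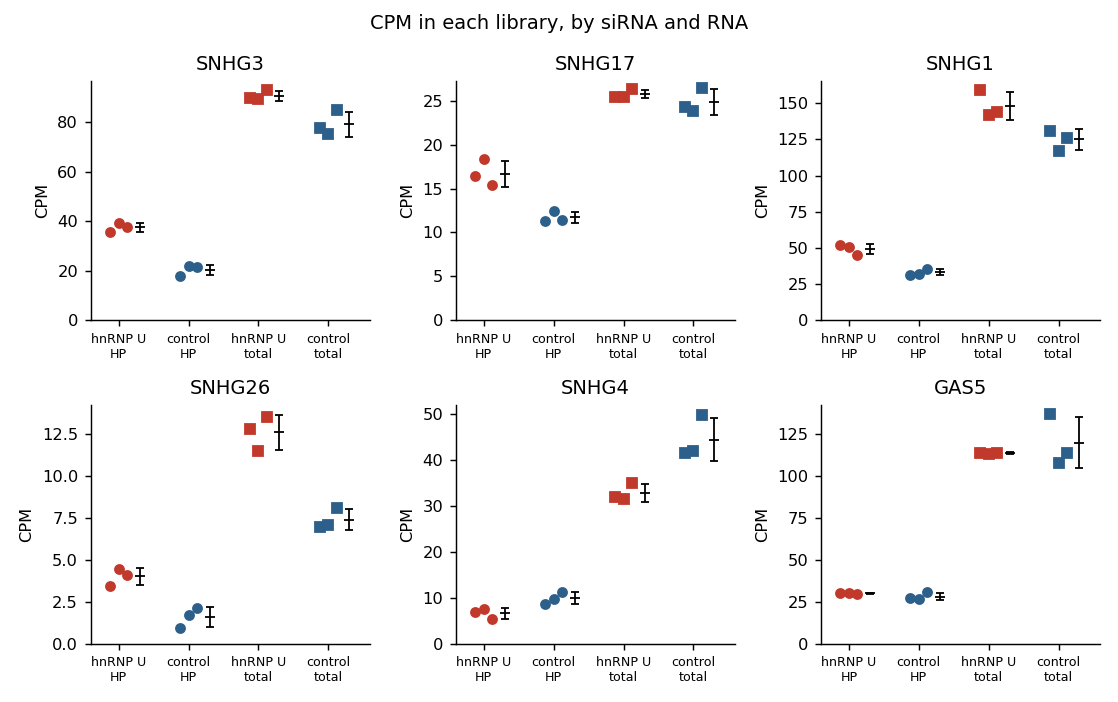
CPM in each library (y axis from 0) of SNHG3, SNHG17, SNHG1, SNHG26, SNHG4 and GAS5, circles for HP RNA and squares for total RNA, hnRNP U siRNA in red and control siRNA in blue, with the mean and SD (n = 3) in black. For SNHG3 the groups are farther apart in HP RNA (35.5 to 39.1 against 17.7 to 21.7 CPM) than in total RNA (89.3 to 92.8 against 75.1 to 84.9 CPM), while the groups of GAS5 overlap in both.

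Features that the choice of genes did not use were set against these values as descriptions. By the kind of small RNA hosted, the 10 tested genes with box C/D snoRNAs alone had 4 higher and 2 lower in total RNA, and the 10 with box H/ACA snoRNAs alone had 4 higher and 3 lower. In HP RNA they had 4 higher and 1 lower, and 5 higher and 1 lower. Among all genes tested, 28.8% were higher and 29.3% lower in total RNA, and 26.5% and 28% in HP RNA. Both hosts of small Cajal body RNAs tested, SNHG10 and SNHG20, were higher in both kinds of RNA, although SNHG20 lost its call under some alternatives in each. The median log2 ratio of HP to total RNA was −1.95 for box C/D hosts and −1.31 for box H/ACA hosts with hnRNP U siRNA, and −2.17 and −1.66 with control siRNA, but each kind spanned more than 1 on the log2 scale.

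By their RefSeq start, the 6 tested genes with an oligopyrimidine run (printed above) had 0 higher and 2 lower in total RNA, and again 0 higher and 2 lower in HP RNA, in both cases SNHG4 and SNHG12. Over all genes tested, 28.8% were higher and 29.3% lower in total RNA and 26.5% and 28% in HP RNA, and no test was made on so few genes. The 15 tested genes with another RefSeq start had 9 higher and 3 lower in total RNA, and 10 higher and 1 lower in HP RNA. The medians were −0.08 and 0.25 in total RNA and 0.04 and 0.53 in HP RNA, with the oligopyrimidine starts given first. GAS5 and SNHG29 count among the other starts by RefSeq although their canonical GENCODE transcripts carry the run, and neither was higher. SNHG26, also among the other starts with 12 of 22 GENCODE transcripts carrying the run, was higher in both kinds of RNA, so the split depends on which start is used. The 82 ribosomal protein genes tested had medians of −0.01 in total RNA and 0.07 in HP RNA.

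The snoRNAs themselves were hardly seen, as is usual after poly(A) selection. GENCODE places 144 snoRNA genes inside 30 of the 31 host genes and none inside GAS5, where RefSeq has 11, so the sums leave out the snoRNAs of GAS5. Their rows in the count table, under 141 different symbols, together held 112 to 143 counts per library of total RNA with hnRNP U siRNA. With control siRNA they held 98 to 163. In HP RNA they held 25 to 30 counts with hnRNP U siRNA and 19 to 26 with control siRNA. SNORA73B, inside SNHG3, had the most, with 66, 47 and 37 counts in total RNA with hnRNP U siRNA and 45, 32 and 53 with control siRNA. These counts overlapped, and after poly(A) selection they do not show whether the mature snoRNA changed.

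Of the proteins that bind or assemble snoRNAs, 8 of 16 mRNAs were higher and 0 lower in total RNA with hnRNP U siRNA, and 5 higher and 0 lower in HP RNA. Here and for the lists that follow, the shares over all genes tested were 28.8% higher and 29.3% lower in total RNA, and 26.5% and 28% in HP RNA. SNU13, which binds box C/D snoRNAs first, rose by 0.26 in total RNA and 0.24 in HP RNA, and FBL, the methyltransferase, by 0.19 and 0.38. RUVBL1 and GAR1, an assembly factor and a box H/ACA protein, had 0.25 and 0.24 in total RNA and 0.27 and 0.21 in HP RNA. None of the 16 was called in HP/total. Of the nonsense-mediated decay factors, 6 of 10 were higher in each kind of RNA, SMG8 by 0.67 in total RNA and 0.79 in HP RNA, UPF3B by 0.68 in both, and UPF3A by 0.47 in total RNA and 0.73 in HP RNA. Of the mRNAs known as targets of this decay, 5 of 8 were higher and 1 lower in total RNA and 6 higher and 1 lower in HP RNA, with TBL2 at 0.90 and 0.95, UPP1 at 1.25 and 1.48 and ATF4 at 0.30 and 0.50. Members of these lists and the hosts moved in the same cells, and a link between them was not tested.

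Overlapping annotation limits some of these values. Reads from exons shared on the same strand cannot be told apart under any strand setting. Exons of SNHG5, SNHG20, SNHG32, SNHG4 and SNHG3 share 60.7%, 42.2%, 39.7%, 12.3% and 11.0% of the canonical transcript with another gene on the same strand. For SNHG3 that gene is RCC1, which had log2 fold changes of 0.01 in HP RNA, −0.05 in total RNA and, for HP/total, 0.09, none called. Opposite-strand exons cover 81.7% of SNHG6, 62.7% of EPB41L4A-AS1, 61.4% of ZFAS1, 46.4% of SNHG7, 40.3% of SNHG8 and 22.5% of SNHG26. These matter because the strand setting of the counts is not given in the sources used here. PRSS12, opposite SNHG8, and DIPK1B, opposite SNHG7, were lower with hnRNP U siRNA by −1.08 and −0.66 in total RNA, and reads from such a pair cannot be told apart without strand. Of the 14 tested genes with under 10% of overlap on either strand, 7 were higher and 2 lower in total RNA, 8 higher and 2 lower in HP RNA, 0 were called in HP/total, and all 14 were lower in HP than in total RNA under both siRNAs.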

How the data were processed

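HCT116 libraries of total RNA and HP RNA were analysed, 3 for each siRNA. Libraries were directional and made after poly(A) selection. The authors ran Trim Galore on the reads, then STAR against hg38. The submitters' notes name CASAVA 1.8. The deposited values are raw counts per gene with no normalization. Counting precision is that of reads, without molecular identifiers.

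Names and exons came from GENCODE release 44, which held 62639 of the 62703 identifiers. Genes kept by filterByExpr (minimum count 10, each comparison apart) were normalized by TMM and compared with edgeR 4.0.16 in R 4.3.3 (its quasi-likelihood test, with p-values adjusted by Benjamini-Hochberg across every gene of the comparison and a threshold of 0.05) in 5 comparisons, with no block. Tests were checked on simulated data. Full values were given for the genes called in HP/total, up to 5 with the largest called change each way between siRNAs in each kind of RNA, the 3 with the highest and the 3 with the lowest HP to total ratio with control siRNA (both where log2 CPM averaged 3 or more), and GAS5, ZFAS1, EPB41L4A-AS1 and SNHG1. Of each other list at most 4 called genes were named, by smallest adjusted p. Other values were added after they were seen. The genes and lists were chosen with earlier results of these data known. Alternatives were DESeq2 1.42.0, its size factors, library size alone, other filters, 1 fit of all libraries, replicate blocks and leaving out each library. A planned search for siRNA seed matches was not run. One result on a list of related genes is not reported here.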

Additional observations from a re-analysis of the deposited data

Results flagged for a closer look

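SNHG3 stood out because its HP RNA relative to total RNA differed between the siRNAs by a test of that difference itself. Its log2 HP/total was 0.69 higher with hnRNP U siRNA than with control siRNA (SE 0.09, edgeR adjusted p = 9.9e-04), with the 3 ratios under hnRNP U siRNA above the 3 under control siRNA. Over the 19 alternatives its log2 value ran from 0.61 to 0.74.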

How the results depend on the processing

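Of 1717 values of single host genes under the alternatives, 1677 kept their direction and side of the threshold, 22 lost their call, 18 gained one and 0 reversed. The losses were in SNHG12, SNHG15, SNHG20, SNHG29 and SNHG31 in HP RNA, and SNHG15 and SNHG20 in total RNA. HP/total moved most, with 26 genes called by edgeR, 49 by DESeq2 and 61 when low counts were not filtered, and with 1 host gene higher by edgeR and 2 by DESeq2. The cause was not tested. Leaving out 1 library at a time gave 19 to 37 genes and 1 to 2 higher hosts in HP/total. The lower hosts in HP RNA numbered 1 to 3, with 1 without replicate 3 of the control siRNA. In total RNA the hosts called were 8 to 10 higher and 6 to 9 lower, and in HP RNA 9 to 11 higher. All 25 stayed lower in HP than in total RNA when any library was left out, and with a minimum count of 50 all 24 tested were lower. Replicate numbers are shared across groups, but same-numbered samples did not deviate together throughout (r = −0.00376 to 0.0558 in total RNA, 0.0279 to 0.0843 in HP RNA, and for HP against total 0.0486 to 0.127 with hnRNP U siRNA and 0.0962 to 0.134 with control siRNA), so the numbers were not taken as pairs. Each sample correlated best with its own number in all these except total RNA. HP and total RNA of the same number and siRNA thus did deviate together. The main HP/total fit leaves this out and called fewer genes than the blocked fits that follow. With the replicate number as a block, HP/total had 78 genes called and 2 hosts higher (SNHG3 and SNHG17). With the culture (replicate number and siRNA) as the replicate block it had 140 genes and 3 hosts (SNHG1 also, adjusted p = 0.021). The block by number gave 9390 genes in total RNA and 9122 in HP RNA, against 9050 and 8022 without it. Depth limits weak hosts most, as SNHG31 had 3 to 13 counts per HP library.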
